A study of Arabidopsis thaliana with 24 samples.

Results

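The chloroplast genome of Arabidopsis thaliana was followed in detached leaf blades through the loci whose identifiers start with ATCG. A locus was taken as a member when it reached 1 TPM (transcripts per 1000000, an abundance scaled for transcript length and for the library total) in at least 2 of 24 libraries. This left 65 of 134 chloroplast loci, among 37686 loci in all. Of the other 69 loci, 56 were listed at 0 in every library. The members held between 99.3% and 99.8% of the chloroplast TPM of each library. At the edge of the rule, ATCG01080, ATCG00870 and ATCG01270 reached 1 TPM in 2 libraries each, while ATCG01050, the left-out locus of highest mean, averaged 0.597 TPM and reached 1 TPM in 0 libraries.

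The genotypes compared were the wild type Col-0 (WT) and coi1-2, a mutant of COI1, which encodes the F-box protein of the jasmonate receptor. Seedlings of both were 12 d old and had grown at 22 °C in 16 h light and 8 h dark on MS medium that held 1% sucrose. Blades of the first rosette leaf pair were cut from the petiole and kept at 22 °C in constant light on B5 medium that lacked sucrose. Explants were frozen whole directly after cutting (t0), at 10 and 30 min and at 1, 2, 4, 8 and 12 h. Each time had 1 labelled WT library and 2 labelled coi1 libraries. Time after detachment therefore cannot be told apart from time in constant light, loss of sucrose supply and time of day. WT and coi1 values were deposited in separate tables, so genotype and table cannot be told apart either. Nothing in the labels says that the coi1 replicates came from separate plants or cultures, so p-values measure the spread between these libraries, which may be technical.

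The chloroplast genome encodes part of the photosynthetic complexes, part of the organelle's own ribosome and RNA polymerase, and a few other proteins, beside ribosomal and transfer RNAs. Most partner subunits, and the sigma factors that direct the plastid-encoded polymerase, are encoded in the nucleus. Chloroplast transcripts mostly lack the poly(A) tail of nuclear mRNAs, so how much of them a library holds depends on how RNA was selected, which the labels do not state. The reference used here names the product of 6 members, and all others are given by locus identifier alone. ATCG00670 encodes the plastid-encoded ClpP, a proteolytic subunit of the ATP-dependent Clp protease. ATCG00530 encodes a CemA-like protein related to proton extrusion. ATCG01310, ATCG00660 and ATCG00750 encode the ribosomal proteins L2, L20 and S11, and ATCG00430 encodes a protein annotated as photosystem II reaction center protein G, an early name of an NDH complex subunit.

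Depth is unknown because TPM keeps no read totals. COI1 transcripts ranged from 8.65 to 26.0 TPM in WT and from 13.1 to 23.3 TPM in coi1, with overlapping groups; an RNA level does not test a mutation that leaves the transcript. Of the mesophyll markers, RBCS1A ranged from 14881 to 25209 TPM, CA1 from 1505 to 5409 TPM and LHCB2.1 from 29.1 to 6169 TPM, so all were present in the labelled leaf tissue, the last at very uneven levels. The root markers were near 0, with EXPA7 at 0 in every library and CASP1 at most 1.22 TPM.

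Chloroplast transcripts were a very small part of each library. They held from 0.0546% to 0.0947% of TPM in the 8 WT libraries, with a median of 0.0671%, and from 0.0420% to 0.234% in the 16 coi1 libraries, with a median of 0.0642%. From t0 to 12 h the WT shares were 0.0635, 0.0546, 0.0723, 0.0670, 0.0947, 0.0672, 0.0795 and 0.0577%. The WT library of 2 h was the highest and that of 10 min the lowest. In coi1, 2 libraries stood apart from their replicates. Replicate 1 at 1 h held 0.157% against 0.0482% in replicate 2, and replicate 2 at 4 h held 0.234% against 0.0662% in replicate 1. At the other 6 times the coi1 replicates lay between 0.0420% and 0.0837%. The same libraries were high in nuclear ribosomal RNA. The 629 nuclear rRNA and tRNA loci, nearly all of it from rRNA, summed to 5989 TPM in the high library at 1 h against 1593 in its replicate, and to 17489 against 1784 TPM at 4 h. The mitochondrial share was 0.00342% against 0.00109% at 1 h and 0.00409% against 0.00258% at 4 h. The part of RNA selection or quality in these libraries was not tested, and more chloroplast RNA per explant cannot be told apart from more of it entering the library.

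**Figure D1:**
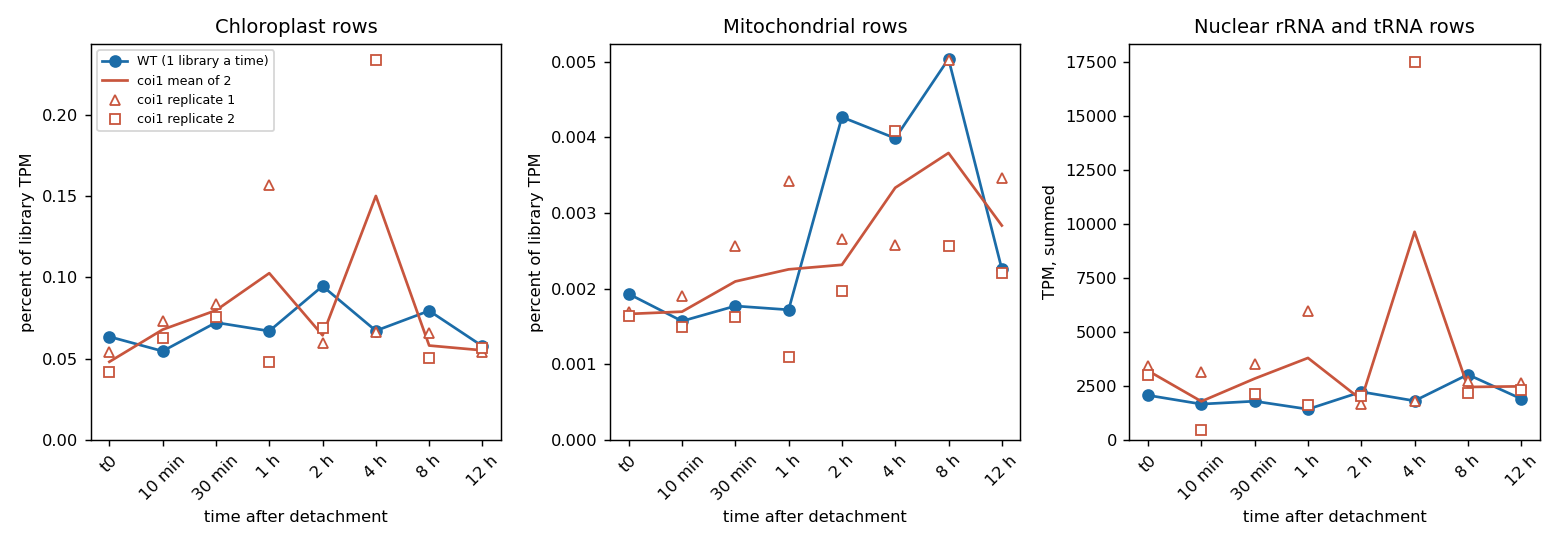
Share of TPM from chloroplast loci (left, percent) and mitochondrial loci (middle, percent), and summed TPM of nuclear rRNA and tRNA loci (right), by time after detachment; filled circles are single WT libraries, open symbols the coi1 replicates and the line without symbols their mean. The chloroplast share of coi1 replicate 1 at 1 h (0.157%) and of replicate 2 at 4 h (0.234%) lies above every other library, and both are also the highest in nuclear rRNA.

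The chloroplast share did not pass the test for genotype. It averaged 0.0783% in coi1 against 0.0696% in WT, and coi1 was lower at 4 of 8 times (exact two-sided sign-flip test over the times, p = 0.594). Without the 2 high libraries the sign turned, with coi1 lower by a mean of -0.00859 percentage points and at 6 of 8 times (exact p = 0.148). Without the 4 most abundant loci coi1 was lower at 7 of 8 times, 0.0335% against 0.0432% (exact p = 0.0156). That alternative was added after the data were seen. The loci left averaged 432 TPM in WT and 335 TPM in coi1. They include ATCG01020, which averaged 58.2 TPM in WT and was at 0 in every coi1 library. The difference thus rests in large part on a locus present in WT alone, and its p is not read as a result. The share without ATCG01020 was not tested. Late coi1 libraries (4, 8 and 12 h) held 0.0878% ± 0.0720 (SD, n = 6) and early ones (t0, 10 and 30 min) 0.0652% ± 0.0154 (SD, n = 6; exact two-sided permutation test, p = 0.805). Without replicate 2 at 4 h the late mean was 0.0585% and the difference -0.00671 percentage points (exact p = 0.394).

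The share was set against both other kinds of RNA, in 2 relations computed over the 24 libraries. After adjustment Pearson's r passed for both and Spearman's rho for neither. With the mitochondrial share Pearson's r was 0.425 (permutation p = 0.0339, adjusted 0.0339) and Spearman's rho 0.455 (permutation p = 0.0264, adjusted 0.0528). Within coi1 r was 0.496 (permutation p = 0.0543, n = 16) and within WT 0.696 (exact permutation p = 0.0496, n = 8). Without the 2 libraries farthest from the median share r was 0.434 (permutation p = 0.0441). Without replicate 2 of coi1 at every time it was 0.291 (permutation p = 0.287). With nuclear rRNA and tRNA, a relation chosen after the data were seen, r was 0.910 (permutation p = 0.00058, adjusted 0.00116) and rho 0.357 (permutation p = 0.0863, adjusted 0.0863). Within coi1 that r was 0.925 and within WT 0.531 (exact permutation p = 0.18, n = 8). It fell to 0.138 (permutation p = 0.536) without the 2 high libraries, so it rested on them.

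A few loci carried a large part of the chloroplast signal. ATCG01210, ATCG00950, ATCG01180 and ATCG00920 averaged 99.6, 99.4, 94.1 and 93.0 TPM over the 24 libraries. Together they made up between 33.7% and 41.7% of chloroplast TPM in WT and between 38.9% and 75.6% in coi1. ATCG00480 and ATCG00470 followed with 32.2 and 32.0 TPM. Next came ATCG01020 with 19.4, ATCG00830 with 16.9, ATCG00020 with 16.8 and ATCG01310 (ribosomal protein L2) with 15.9 TPM. In all, 16 members averaged at least 10 TPM, 39 between 1 and 10 TPM, and 10 under 1 TPM. Of the 65 members, 33 reached 1 TPM in all 24 libraries and 20 were listed at 0 in at least 1.

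**Figure D2:**
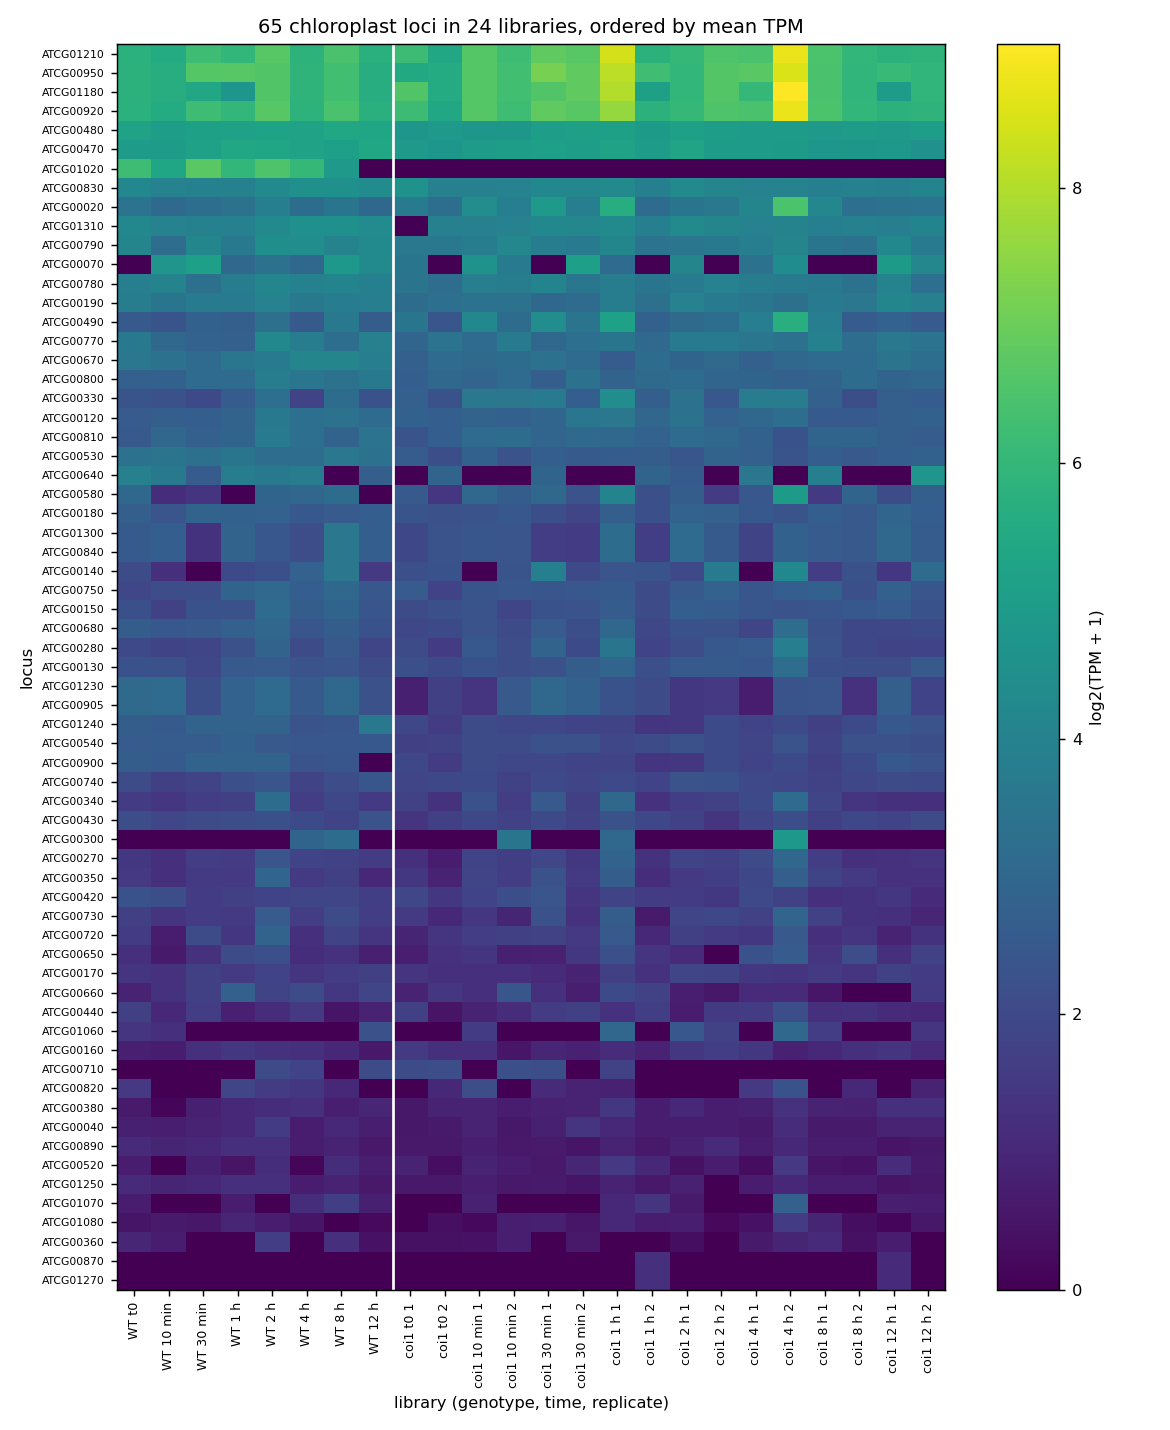
Abundance, as log2(TPM + 1), of the 65 chloroplast loci (vertical axis, ordered by mean TPM from the top) in the 24 libraries (horizontal axis, WT left of the white line). The 4 loci at the top are brightest in coi1 replicate 1 at 1 h and replicate 2 at 4 h, and ATCG01020 is at 0 in every coi1 library.

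The loci differed in how steady they were. Among the 47 members averaging at least 2 TPM, the coefficient of variation over all libraries had a median of 45.8%. ATCG00480 was the steadiest with 12.6%, followed among the 10 most abundant by ATCG00470 with 15.1% and ATCG00830 with 17.4%. The highest coefficients belonged to loci listed at 0 in many libraries, 247% for ATCG00300 and 175% for ATCG01020. Among loci never at 0, ATCG01180 had 109%, ATCG00020 106%, ATCG01210 94.3% and ATCG00490 94.1%. ATCG00070, at 12.9 TPM on average, was listed at 0 in 7 libraries and reached 33.8 TPM in the WT library of 30 min. At 4 times its coi1 replicates were split between 0 and a value above 7 TPM, so its level at a single time could not be given.

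Of the members, 16 formed 8 pairs with equal values in most or all libraries. Values were called equal when they differed by at most 0.005 TPM. The pairs ATCG00840 and ATCG01300, ATCG00905 and ATCG01230, and ATCG00870 and ATCG01270 were equal in all 24 libraries. ATCG00950 and ATCG01180 were equal in 15 and the other 4 pairs in 23. In coi1 replicate 1 at t0, ATCG00830 was listed at 24.1 TPM and its pair ATCG01310 at 0, whereas both had the same value, between 13.5 and 22.2 TPM, in the other 23 libraries. In the WT library of 12 h, ATCG01240 was listed at 11.3 TPM and ATCG00900 at 0. Reads that fit both copies of a repeated sequence can be split in any proportion between them, so the level of a single locus of a pair is uncertain.

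Leading loci were many times higher in the 2 high libraries while others were level. These libraries were picked for their chloroplast share, so the ratios describe them and carry no test. Among the 44 members with at least 1 TPM in both lower replicates, 14 (31.8%) were at least 2-fold higher in both high libraries, and 14 were within 1.5-fold in both. Over all genes with at least 1 TPM there, 23 of 16752 (0.137%) were at least 2-fold higher in both, with median ratios of 0.964 and 0.996. The other 9 of those 23 included 3 nuclear rRNA loci and 1 mitochondrial locus. The 14 higher members held both loci of the equal pairs ATCG00840 and ATCG01300, ATCG00920 and ATCG01210, and ATCG00950 and ATCG01180. They are thus not 14 separate measurements. ATCG01180 had 256 against 34.7 TPM at 1 h and 527 against 64.2 TPM at 4 h, ratios of 7.40 and 8.21. Its pair ATCG00950 had 282 against 75.9 TPM and 372 against 106 TPM, ratios of 3.71 and 3.52. The values of this pair were unequal in all of these libraries, so the ratios of either locus alone are uncertain. ATCG00020 had 48.8 against 7.88 TPM and 88.7 against 16.4 TPM. ATCG00490 had 35.4 against 6.09 TPM and 50.1 against 13.7 TPM. In the same libraries ATCG00480 had 33.9 against 29.5 TPM and 30.2 against 29.8 TPM. ATCG00470 had 36.4 against 30.1 TPM and 29.3 against 30.6 TPM. Ribosomal protein L2 (ATCG01310), ribosomal protein L20 (ATCG00660), the CemA-like locus and the protein annotated as photosystem II protein G were also within 1.5-fold. The excess of these 2 libraries was thus unequal across the chloroplast genome.

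**Figure D3:**
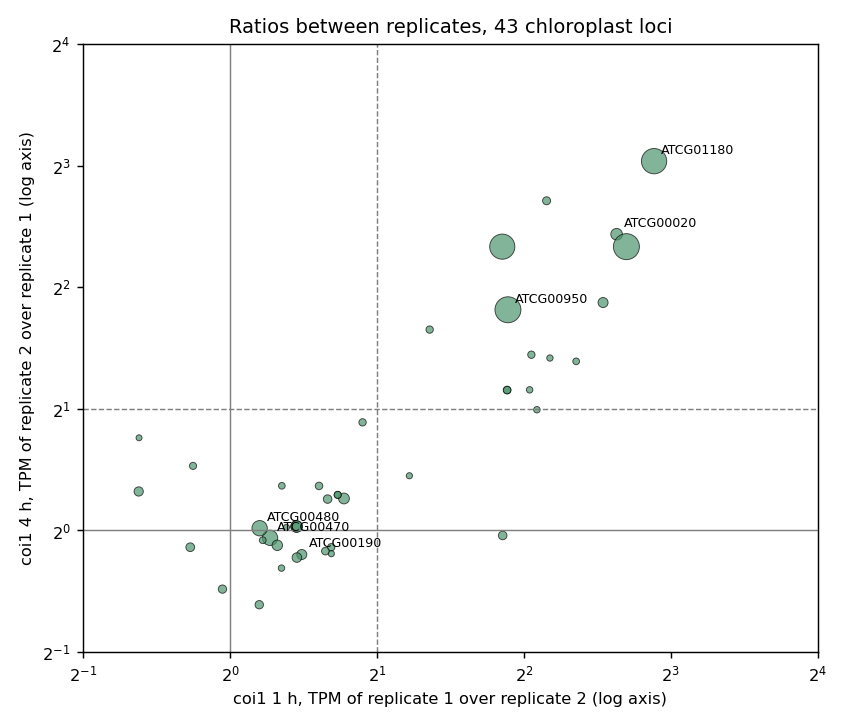
Ratio of TPM between coi1 replicates for each chloroplast locus, at 1 h (horizontal, replicate 1 over 2) and at 4 h (vertical, replicate 2 over 1), both on log axes; circle area grows with mean TPM, solid lines mark a ratio of 1 and dashed lines a ratio of 2. Drawn are 43 of the 44 loci with at least 1 TPM in both lower replicates, the other having a ratio of 0. ATCG01180 lies at the top right (7.40 and 8.21) and its pair ATCG00950 lower (3.71 and 3.52). ATCG00480 and ATCG00470 lie near 1 on both axes.

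In coi1, 8 chloroplast loci were lower than in WT and 0 were higher. That was 12.3% of the 65 tested, against 12.5% of all 19757 genes called for genotype (limma on log2(TPM + 1), genotype and time as terms, Benjamini-Hochberg adjusted p below 0.05). Among the 8, ATCG01020 was at 0 in every coi1 library and had to differ; without it 7 of 64 (10.9%) were called. Of the 65 loci, 59 reached 1 TPM in at least 2 libraries of each genotype. The counts of calls moved strongly with the replicates. All WT libraries used are replicate 1, so the replicate block made the genotype term a comparison of coi1 replicate 1 with WT. With that block 6 of 65 loci (9.23%) and 4.69% of all genes were called. Without coi1 replicate 1 these were 3 of 62 (4.84%) and 0.591%, and without replicate 2 4 of 62 (6.45%) and 1.17%. For the direction, 8.67% of all genes were called lower and 3.87% higher. The chloroplast median difference was -0.13 on the log2 scale, and that of all genes -0.05. Of the 65 loci, 42 had a difference below 0 and 23 above. Fold changes on this scale understate those of low loci. Markers of leaf cell types also differed between the genotypes: the phloem regulator APL by -0.58, the epidermal factor ATML1 by 0.65, the mesophyll carbonic anhydrase CA1 by -0.46 and the antenna gene LHCB2.1 by 2.54 on the log2 scale (limma, adjusted p = 0.000357, 0.0106, 0.0411 and 0.0233). The other 9 markers tested did not pass. Summed levels overlapped between WT and coi1, at 139 to 212 against 157 to 458 TPM for epidermis, 45.2 to 106 against 36.9 to 86.3 TPM for guard cells, 80.7 to 238 against 73.7 to 183 TPM for vasculature and 22171 to 30745 against 18250 to 28707 TPM for mesophyll. Their part in the chloroplast differences was not tested.

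The CemA-like locus ATCG00530 differed in every library. In WT it had 9.69, 10.1, 9.20, 10.4, 8.32, 8.46, 11.1 and 9.60 TPM from t0 to 12 h. In coi1 the lowest of 16 libraries had 3.54, the median 5.32 and the highest 6.43 TPM. All coi1 libraries lay below all WT libraries, at 9.61 ± 0.94 (SD, n = 8) against 5.13 ± 0.80 (SD, n = 16) TPM. The log2 difference was -0.80 ± 0.09 (SE; limma, adjusted p = 2.4e-05), and it passed under all 9 alternatives run, none of which left out a WT library. ATCG00540 was also lower in every coi1 library, with WT between 4.45 and 6.07 TPM and coi1 between 2.30 and 3.96 TPM. Its log2 difference was -0.50 ± 0.08 (SE; limma, adjusted p = 0.000585). Without coi1 replicate 1 its adjusted p (limma) was 0.0749. Among all genes tested, 25 (0.127%) had every coi1 library below every WT library. These 2 loci were the only chloroplast members among them, and 0 members had every coi1 library above every WT library.

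ClpP (ATCG00670) was lower in coi1 at 7 of 8 times. WT had 11.1, 9.64, 7.94, 10.8, 12.2, 16.1, 16.2 and 13.7 TPM from t0 to 12 h, while coi1 ranged from 5.25 to 10.2 TPM with a median of 7.89. The WT libraries of 10 and 30 min, the lowest of WT, lay within the coi1 range. The log2 difference was -0.59 ± 0.11 (SE; limma, adjusted p = 0.00365), with adjusted p (limma) of 0.0934 and 0.082 when coi1 replicate 1 or 2 was left out. The difference in time course did not pass the test for ClpP. Among its nuclear partners tested, 2 were called lower in coi1, as were 8.67% of all genes. CLPR1, a subunit of the same proteolytic core, differed by -0.32 on the log2 scale (limma, adjusted p = 0.0117). CLPC1, the chaperone that feeds this core, differed by -0.28 (limma, adjusted p = 0.0287). CLPP3, CLPP4, CLPP5, CLPP6 and CLPR4 did not pass.

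ATCG00480 and ATCG00470, abundant and steady, were slightly lower in coi1. ATCG00480 had a WT mean of 36.4 ± 2.91 (SD, n = 8) and a coi1 mean of 30.1 ± 2.69 (SD, n = 16) TPM, with coi1 lower at 8 of 8 times. Its log2 difference was -0.27 ± 0.05 (SE; limma, adjusted p = 0.00532). ATCG00470 had 35.9 ± 4.26 against 30.0 ± 3.88 TPM (log2 difference -0.25 ± 0.07 (SE); limma, adjusted p = 0.0254). Both groups overlapped at both loci, and with either coi1 replicate number left out neither locus passed. ATCG00890, under 1 TPM on average in both genotypes and a locus of an equal pair with ATCG01250, was lower by -0.26 (limma, adjusted p = 0.0417). That call was lost in 4 of 9 alternatives, with adjusted p (limma) of 0.0609 after median-of-ratios rescaling, 0.114 with the replicate block, and 0.252 and 0.178 without coi1 replicate 1 or 2.

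ATCG01240 was lower by -0.88 ± 0.11 (SE) on the log2 scale (limma, adjusted p = 0.000113). It is a locus of an equal pair. At the 7 times other than 12 h, both loci of the pair had the same WT value, between 4.03 and 6.41 TPM, and coi1 ranged from 1.60 to 4.59 TPM over all times. ATCG00900, the other locus, had a difference of -0.43 and did not pass. With the values of each equal pair summed, the pair differed by -0.86 on the log2 scale (limma, adjusted p = 0.0005), and 8 chloroplast loci or pairs were called in all.

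ATCG01020 was above 0 in WT alone. It had 75.2, 38.4, 104, 63.1, 93.0, 63.8 and 28.1 TPM from t0 to 8 h in WT, was listed at 0 in WT at 12 h, and was listed at 0 in all 16 coi1 libraries. It met the 1 TPM rule through 7 WT libraries alone, so it had to differ between the genotypes; its values are a description, with no test and no fold. Among the 65 members it was by far the most abundant of those listed at 0 in at least 12 libraries, which were 7. A listed 0 can also be a failed estimate, which was not tested.

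**Figure D4:**
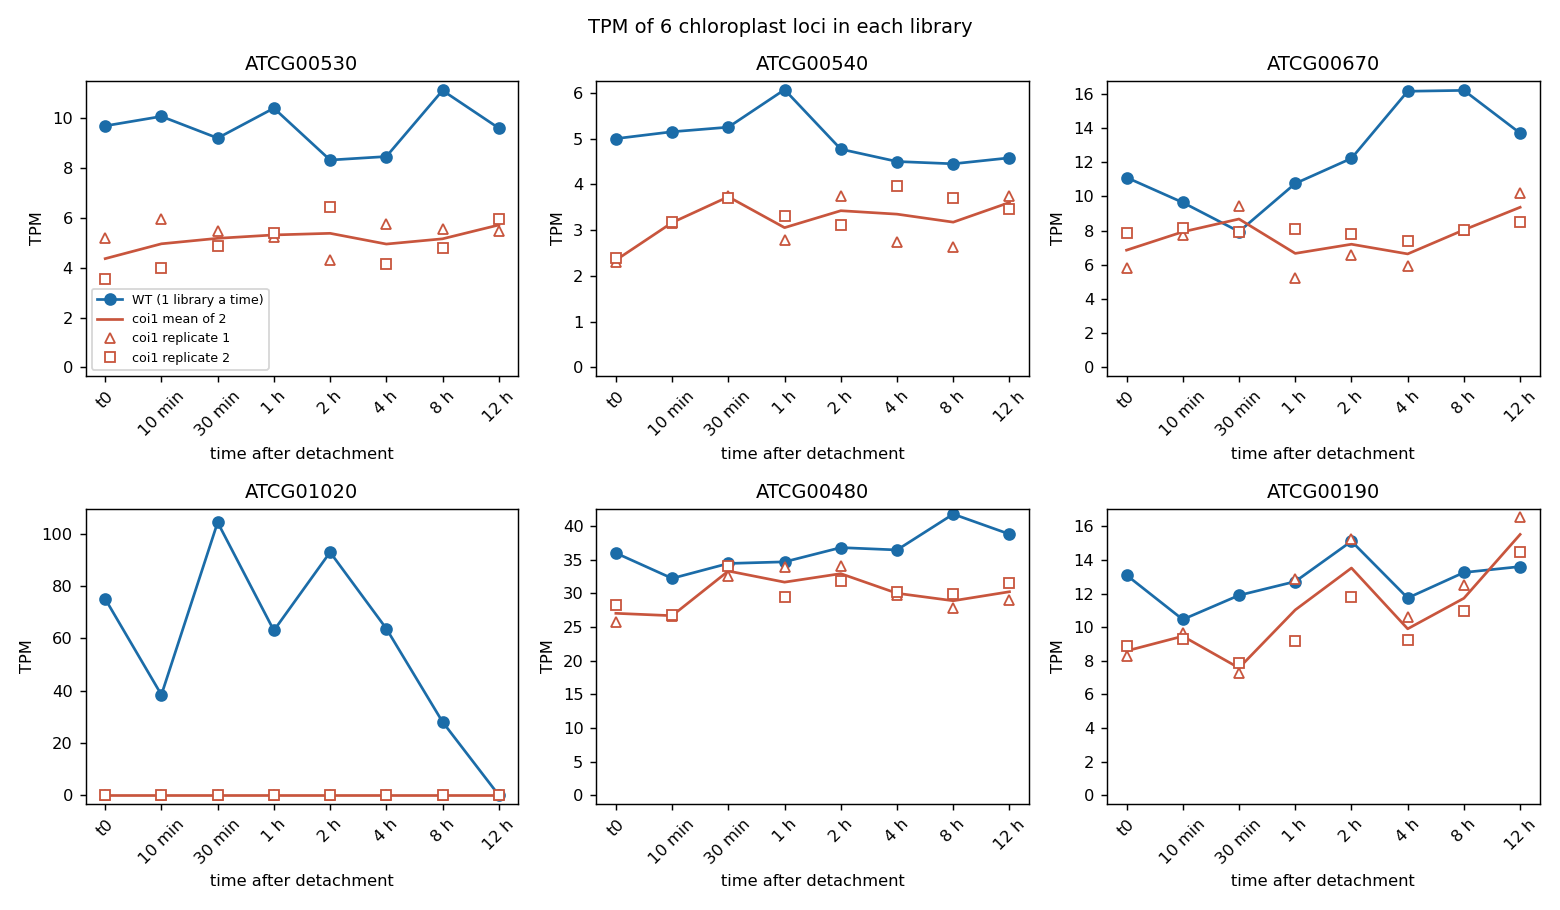
TPM of 6 chloroplast loci by time after detachment, with filled circles for single WT libraries, open symbols for the coi1 replicates and a line for their mean. ATCG00530 and ATCG00540 are lower in all 16 coi1 libraries than in any WT library, ATCG01020 is at 0 in every coi1 library, and ATCG00190 is higher in coi1 late than early.

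The other named products did not pass for genotype. L20 (ATCG00660) had a log2 difference of -0.65 ± 0.22 (SE; limma, adjusted p = 0.0621), L2 (ATCG01310) -0.44 ± 0.34 (adjusted p = 0.405), S11 (ATCG00750) -0.08 ± 0.13 (adjusted p = 0.701) and ATCG00430 -0.23 ± 0.09 (adjusted p = 0.105). Among the most abundant loci the highest differences were 0.74 for ATCG00490, 0.70 for ATCG00020, 0.67 for ATCG01180 and 0.49 for ATCG01210, with adjusted p (limma) from 0.157 to 0.329. All 4 were among the loci at least 2-fold higher in both high libraries.

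The test of a difference in time course between the genotypes (limma, F test of genotype by spline) called 0.202% of all genes and 2 of 65 loci, ATCG01020 and ATCG00900, and neither count is read as a result. ATCG01020 was at 0 throughout coi1, so its test restates the WT values. For ATCG00900 (limma, adjusted p = 0.00812) the test turned on the listed 0 of the WT library of 12 h, since the summed pair had an adjusted p of 0.788 (limma). With either coi1 replicate number left out, 0 loci were called.

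In WT alone, 0 of 62 chloroplast loci were called over the time course (limma, F test of a spline), as were 0.0% of all 18906 genes. At an unadjusted p below 0.05 there were 8 loci and 3458 genes. As single-library values, 52 of 65 loci were higher at 2 h than at t0 and 10 lower, with a median log2 change of 0.32 against 0.03 for all genes. At 10 min 46 were lower and 15 higher, with a median of -0.18 against -0.15.

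In coi1, changes from t0 at single times were few. Of 62 loci tested, 0 were called at 10 min, against 0.533% of all 19323 genes (limma, time group means). At 30 min 0 were called against 9.23% of genes, at 1 h 0 against 31.2%, and at 8 h 0 against 14.6%. At an unadjusted p below 0.05 these times had 2, 7, 5 and 4 loci. Median-of-ratios rescaling scales each library by the median ratio of its genes to their geometric mean. After it 2 of 64 loci (3.12%) were called at 30 min, against 5.98% of all genes. At 1 h 5 of 64 (7.81%) were then called, against 29.0% of all genes. At 2 h 3 loci were called, all higher, against 25.6% of genes called and 13.2% called higher. At 4 h 2 were called, both higher, against 14.0% and 7.39%. At 12 h 1 was called, also higher, against 21.7% and 15.5%. The background at 30 min rested on single libraries: 0.726% of all genes were called there without t0 replicate 2 and 41.0% without 30 min replicate 1, and the replicates of 30 min lay farthest apart of all times (root-mean-square difference over genes 1.05 on the log2 scale). With 1 library left out, the lowest shares of genes called at 10 min and then 1, 2, 4, 8 and 12 h were 0.135, 15.4, 11.5, 3.62, 7.61 and 10.0%, and the highest 1.93, 25.9, 18.1, 10.1, 12.0 and 16.2%. The median change of the loci, with all libraries in, was above that of all genes at every time, at 0.26, 0.30, 0.39, 0.30, 0.35, 0.16 and 0.27 on the log2 scale from 10 min to 12 h, against -0.09, -0.18, -0.17, 0.00, -0.05, 0.11 and 0.08. These medians share the t0 libraries, of which replicate 2 had the lowest chloroplast share of all 24. At 1 h the median was 0.00 without replicate 1 of that time, which is the high library. At 8 h the order turned without t0 replicate 2, to 0.04 against 0.11, and without 8 h replicate 1, to 0.05 against 0.12.

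ATCG00190 was the member called at most times. It had 8.28 and 8.90 TPM at t0, 15.2 and 11.8 TPM at 2 h and 16.6 and 14.5 TPM at 12 h, and both later pairs lay above t0. Its log2 change was 0.59 ± 0.17 (SE; limma, adjusted p = 0.0294) at 2 h and 0.78 ± 0.17 (SE; limma, adjusted p = 0.00868) at 12 h. Leaving out replicate 1 of 12 h gave an adjusted p (limma) of 0.066 at that time. ATCG00170 rose by 0.58 ± 0.17 (SE; limma, adjusted p = 0.0302) at 2 h, from 1.60 and 1.36 to 2.75 and 2.64 TPM. ATCG00810 rose by 0.56 (limma, adjusted p = 0.0411) at 2 h. With 1 of the 4 libraries left out, the 3 calls of 2 h came to between 0 and 2.

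Both calls at 4 h were lost without the high library, and each was lost in 5 of the 9 alternatives run. ATCG00950 had 44.5 and 45.9 TPM at t0 and 106 and 372 TPM at 4 h, a log2 change of 2.11 ± 0.62 (SE; limma, adjusted p = 0.0481). ATCG00270 had 1.35 and 0.60 TPM at t0 and 3.15 and 7.02 TPM at 4 h, a log2 change of 1.57 ± 0.45 (SE; limma, adjusted p = 0.0438). Without replicate 2 of 4 h the changes were 1.21 and 1.10 and the adjusted p (limma) 0.331 and 0.292. Other loci of high abundance had large changes that did not pass, such as 2.15 for ATCG00070 and 2.08 for ATCG01310 at 4 h. ATCG01310 was listed at 0 in replicate 1 at t0, and its pair ATCG00830, above 0 there, had a change of -0.25. The called ATCG00950 is also a locus of a pair. Its pair ATCG01180 had 94.5 and 45.9 TPM at t0 and 64.2 and 527 TPM at 4 h. Values of this pair were unequal in replicate 1 at t0 and in both libraries of 4 h, so the change of ATCG00950 alone is uncertain. The summed pair was not tested at 4 h.

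With 6 libraries on each side, 5 of 62 loci were called between late (4, 8 and 12 h) and early (t0, 10 and 30 min) coi1 libraries, 4 higher and 1 lower, against 42.9% of all genes, 31.6% higher and 11.3% lower. The chloroplast share called was 8.06%. The median log2 change was 0.14 for the loci and 0.15 for all genes. Among the 4 higher loci, 3 carried consecutive locus numbers. ATCG00190 had 7.29, 8.59 and 9.65 TPM as the lowest, median and highest early value and 9.23, 11.7 and 16.6 TPM late, so the groups overlapped slightly. Its log2 change was 0.47 ± 0.10 (SE; limma, adjusted p = 0.0037), and it passed under all 19 alternatives run. ATCG00180 rose from 3.76 ± 0.64 to 5.18 ± 0.93 TPM (SD, n = 6 each; log2 change 0.37; limma, adjusted p = 0.0174). ATCG00170 rose from 1.25 ± 0.27 to 1.88 ± 0.32 TPM (SD, n = 6 each; log2 change 0.35; limma, adjusted p = 0.0146). In WT, with 1 library a time, ATCG00190 ranged from 10.5 TPM at 10 min to 15.1 TPM at 2 h, with 13.1 TPM at t0 and 13.6 TPM at 12 h. Its difference in time course between genotypes did not pass.

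The remaining calls were of low loci. ATCG00650 rose by 0.83 (limma, adjusted p = 0.0264), from a median of 1.09 to 2.96 TPM. ATCG00710 was called lower (limma, adjusted p = 0.0296), being listed at 0 in all 6 late libraries and in 2 of 6 early ones. Of 19 alternatives run, ATCG00650 did not pass in 9 and ATCG00710 in 11, among them several that left out 1 library. After median-of-ratios rescaling 1 locus was called higher and 4 lower, against 36.1% of all genes, 18.6% higher and 17.6% lower; the median of all genes then moved from 0.15 to 0.00 on the log2 scale. ATCG00190 was the locus called higher. ATCG00470 (-0.32), ATCG00420, ATCG00810 and ATCG00710 were those called lower. ATCG00180 and ATCG00170 had changes of 0.23 and 0.25 and no longer passed (limma, adjusted p = 0.11 and 0.0659). The split of calls into higher and lower therefore depended on the scaling. Without the 2 high libraries 3 loci were called, which were ATCG00170, ATCG00180 and ATCG00190.

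The steadier named products did not pass between late and early. The log2 difference was 0.03 ± 0.12 (SE) for ClpP, 0.11 ± 0.13 for the CemA-like locus, 0.21 ± 0.17 for S11 and 0.19 ± 0.12 for ATCG00430 (limma, adjusted p from 0.221 to 0.872). L20 (ATCG00660) had a mean of 1.72 ± 1.36 TPM early and 0.767 ± 0.741 TPM late (SD, n = 6 each; limma, adjusted p = 0.104).

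The nuclear genes for chloroplast proteins are given beside these values, as lists of 87 loci in 11 groups. Between late and early coi1 libraries 31 of them were lower and 11 higher. Of all genes 11.3% were called lower and 31.6% higher. All 12 nuclear photosystem I subunits tested were lower, with a median of -0.56. PSAD-2 fell by 1.45 and PSAN by 0.86 on the log2 scale (limma, adjusted p = 0.000116 and 0.00018). Of 10 nuclear photosystem II subunits 8 were lower, with a median of -0.56, among them PSBW by -0.90, PSBQ-2 of the oxygen-evolving complex by -0.84 and PSBP-1 by -0.76 (limma, adjusted p = 8.83e-06, 9.09e-05 and 2.83e-05). PSBX with -0.17 and PSBY with 0.07 did not pass (limma, adjusted p = 0.149 and 0.695). Of 9 nuclear plastid ribosomal proteins 6 were lower, with a median of -0.28, RPL21C having the largest change with -0.47 (limma, adjusted p = 0.00381). After median-of-ratios rescaling the photosystem I list had 12 and the photosystem II list 9 lower, with medians of -0.74 for both, and the ribosomal list 7. Of all genes 17.6% were then called lower and 18.6% higher.

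Genes of the transcription and RNA machinery of the chloroplast were called in both directions. Their shares are to be read against the 31.6% of all genes called higher and 11.3% called lower. After median-of-ratios rescaling these were 18.6% and 17.6%. Of 12 proteins associated with the plastid-encoded polymerase 5 were higher and 0 lower, among them FLN1 by 0.90, the iron superoxide dismutase FSD2 by 0.81 and PTAC12 by 0.72 (limma, adjusted p = 0.000401, 3.34e-05 and 0.000607). After rescaling 3 were higher and 2 lower. Of 6 sigma factors SIGA alone was higher, by 0.98 (limma, adjusted p = 0.0171), and after rescaling 0 passed. Of 12 RNA processing and stability factors 2 were higher and 2 lower, with CRR2 at 0.77, CP33 at -0.58 and HCF152 at 0.47 (limma, adjusted p = 5.46e-05, 0.00398 and 0.0108). After rescaling 1 was higher and 4 lower.

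The other partner lists had fewer calls. Of the 10 partners of the carboxylase and Clp protease subunits, 2 were higher and 1 lower. CAC3 fell by 0.45, CLPP6 rose by 0.27 and CLPP4 rose by 0.21 on the log2 scale (limma, adjusted p = 0.000809, 0.0101 and 0.0194). Of 7 NDH subunits PnsB2 rose by 0.71 and PnsB1 fell by 0.41 (limma, adjusted p = 0.013 and 0.00731). The plastocyanin DRT112 was lower by -0.67 (limma, adjusted p = 0.000179), with 0 other calls among the 3 genes of that list. The 4 Rubisco small subunits and the 2 ATP synthase subunits had 0 calls, with RBCS1A at 18666 TPM early and 19990 TPM late and ATPD at 1873 and 1885 TPM (adjusted p 0.392 and 0.92, limma). For genotype, 3 of the 87 partner genes were higher in coi1, PSAE-2, PSAH2 and PSBO1, against 3.87% of all genes. Lower were 6, the Clp subunits CLPR1 and CLPC1 with CSP41A, CRR2, NdhN and RBCS2B, against 8.67% of all genes.

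**Figure D5:**
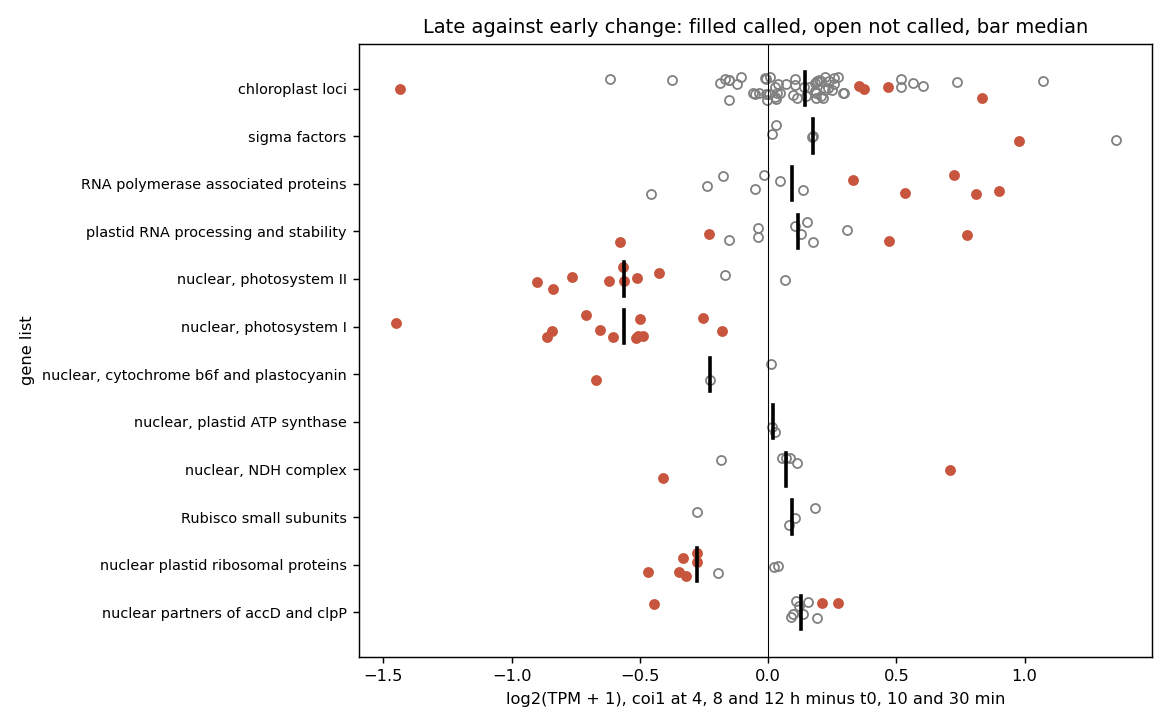
Change in log2(TPM + 1) between late (4, 8 and 12 h) and early (t0, 10 and 30 min) coi1 libraries (horizontal axis) for the 62 tested chloroplast loci and for 11 lists of nuclear genes of chloroplast proteins (vertical axis); each circle is a gene, filled where called, and the bar is the median. The nuclear photosystem lists sit below 0 with medians of -0.56, and the chloroplast loci have a median of 0.14 with 5 filled circles.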

How the data were processed

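Whole leaf explants of WT and coi1-2 were sequenced. The deposited values are TPM per gene, in 1 table per genotype. The submitters' processing notes list STAR 2.7.2b, RSEM 1.3.2, Trim Galore 0.5.0 and the build TAIR10; read selection, strand setting and annotation version are not given in the sources used here. Another 8 columns of the WT table, numbered as a further replicate, matched no sample label and were not used. Every column sums to 1000000 TPM within rounding, so depth and counting error are unknown.

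Fits used limma 3.58.1 in R 4.3.3 on log2(TPM + 1) with a trended prior, over genes that reached 1 TPM in 2 or more of the fitted libraries, with Benjamini-Hochberg adjustment over all genes tested and calls below 0.05. The 16 coi1 libraries were fitted by time group, genotype over 24 libraries with time as a term, and time courses with a natural spline of 3 degrees of freedom. The scripts were tested on simulated data. Members, lists and tests were chosen with earlier results of these data known. Members are named where they are among the 10 of highest mean, among the 4 highest or lowest changes with at least 10 TPM, or called; up to 3 per partner list are named. The TAIR10.1 reference names 6 members and gives no class for any, so role groups and coding loci could not be separated, and no sequence is shown. Of 96 partner loci 87 matched their symbol. Alternatives were median-of-ratios rescaling, a pseudocount of 0.1, no filter, the replicate block, rescaling to nuclear loci and leaving out libraries. Single libraries were left out for the coi1 times and the WT time course. For genotype and time course by genotype, 1 coi1 replicate number or the 2 high libraries were left out, and no WT library was. Reliance on any single WT library was not tested there.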

Additional observations from a re-analysis of the deposited data

Results flagged for a closer look

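In 50 sets of 6 coi1 libraries a value far from the other 5 was looked for. Chance sets apart about 1 in 20, but the sets share libraries and hold both loci of equal pairs, so that rate gives no test. In all, 9 were set apart. Of these, 7 lay in coi1 replicate 2 at 4 h, against the other late libraries: the chloroplast share at 0.2343%, and ATCG00020 at 88.74 TPM, ATCG00270 at 7.02 TPM, ATCG00920 at 436.2 TPM, ATCG00950 at 372.2 TPM, ATCG01180 at 526.6 TPM and ATCG01210 at 436.2 TPM. The other 2 were the pair ATCG00830 and ATCG01310 in coi1 replicate 1 at t0, listed at 24.09 and 0 TPM among the early libraries. In the same library at 4 h nuclear rRNA and tRNA loci summed to 17489 TPM, and their part in these values was not tested.

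Past the threshold for a difference in time course between the genotypes, by the test of genotype by spline, were ATCG01020 (limma, adjusted p = 6.27e-05) and ATCG00900 (limma, adjusted p = 0.00812). ATCG01020 was listed at 0 in every coi1 library and entered the test through WT alone, so its p only restates the WT values. ATCG00900 was listed at 0 in WT at 12 h.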

How the results depend on the processing

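The chloroplast share for genotype was lower in coi1 by -0.0097 percentage points without the 4 most abundant loci (exact sign-flip p = 0.0156). That alternative, added after the data were seen, kept ATCG01020, which averaged 58.2 TPM in WT and was at 0 in every coi1 library. Its p is therefore not read as a result. Without the 2 high libraries the share was lower by -0.00859 (exact sign-flip p = 0.148). For late against early the difference in share was -0.00671 without coi1 replicate 2 at 4 h. With 1 replicate number left out it ranged from -0.00839 to 0.0536, the genotype difference from 0.00711 to 0.0103, and r with the mitochondrial share from 0.291 to 0.513. After median-of-ratios rescaling 2 loci (3.12%) were called at 30 min and 5 (7.81%) at 1 h, against 5.98 and 29.0% of all genes. Without a filter 1 (1.3%) was called at 30 min and 1 (1.3%) at 1 h, against 6.04 and 22.9% of all genes. Of the 4 h calls 0 then remained, against 10.0% of all genes called. Without the 2 high libraries 3 were called late against early, and with equal pairs summed 1 for time course by genotype. The cause of these shifts was not tested.

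Leaving out 1 library or replicate number gave from 0 to 1 loci called at 10 min, 0 to 2 at 30 min, 0 to 7 at 1 h, 0 to 2 at 2 h, 0 to 3 at 4 h, 0 to 2 at 8 h, 0 to 3 at 12 h, 3 to 6 late against early, 3 to 4 for genotype, 0 to 0 for time course by genotype, and 0 to 0 for the WT time course. Late against early, each of 6 libraries gave 3 when left out: t0 replicate 1, 10 min replicate 2, 30 min replicate 1, 4 h replicate 2, 8 h replicate 2 and 12 h replicate 1. A lone replicate was taken to vary like the other groups, so the ranges at single times are not read as a result about the loci. The share of all genes called also moved at these times, as given above. Late against early, with 1 library left out, it lay between 33.7% and 54.3% of all genes. The share of loci called lay between 4.84% and 9.68%.

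Replicate numbers did not pair the samples: deviations of same-numbered coi1 libraries correlated between -0.316 and 0.504 over 28 pairs of times, 21 of them at or under 0.1. With the replicate block 1 locus was called at 1 h, 2 at 12 h and 6 for genotype, and the other counts stayed within 1.5 times. Of all genes 30.6, 21.3 and 4.69% were called in these 3 comparisons. The planned restriction to protein-coding loci was not run, since the reference gives no class for chloroplast loci. Unknown depth limits the loci under 1 TPM most.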
